A study of Homo sapiens with 12 samples.

Results

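The genes described here are 41 protein-coding genes whose RNA was higher in cells labelled ERK5-ko than in parental controls of both MDA-MB-231 and Hs-578T, 2 established triple-negative breast cancer cell lines. They were chosen by their ERK5-ko and parental values among 13737 protein-coding genes that reached an RPKM of 0.5 in 2 or more of the 12 libraries. RPKM is a read count divided by the length of the gene and by the size of the library. A gene was a member where its mean log2(RPKM + 0.5) over the 2 libraries labelled ERK5-ko exceeded that of the 2 parental controls by at least 0.585, which is 1.5-fold on this scale, in each line. The members make up 0.298% of the 13737 genes. A further 351 genes passed this difference in MDA-MB-231 and not in Hs-578T, and 1278 passed it in Hs-578T and not in MDA-MB-231.

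RNA was sequenced from parental controls, cells labelled ERK5-ko and cells labelled MEK5DD of each line, in 2 libraries a group. ERK5 knockout was made with CRISPR/Cas9 guide strands against MAPK7 and sorting of GFP-positive cells, after which clones were grown. The MDA-MB-231 ERK5-ko line was the only clone that survived sorting, and which Hs-578T clone gave the libraries is not given in the sources used here, so clonal differences and the knockout cannot be told apart. MEK5DD is a constitutively active MEK5. Both libraries of a group carry consecutive passages, 29 and 30 for MDA-MB-231 parental controls, 7 and 8 for ERK5-ko and 10 and 11 for MEK5DD. In Hs-578T the passage labels are 83 and 84 for parental controls and 8 and 9 for both ERK5-ko and MEK5DD. Passage and genotype thus cannot be told apart where engineered cells are set against parental ones, and p-values measure only the spread between these libraries, which may be technical.

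ERK5, encoded by MAPK7, is a mitogen-activated protein kinase that MEK5, encoded by MAP2K5, phosphorylates and activates. Active ERK5 enters the nucleus, where it is known to act on transcription factors of the MEF2 family and to raise KLF2 and KLF4 expression. The cascade is known in breast cancer cells for its part in proliferation, migration and epithelial-to-mesenchymal transition. Libraries labelled ERK5-ko held no less MAPK7 RNA than parental controls, at 16.3 and 17.8 RPKM against 13.3 and 14.3 in parental controls of MDA-MB-231, and at 17.8 and 18.1 against 14 and 16 in Hs-578T. The RNA therefore gives no support of its own to this label. The study's authors did report a strong loss of ERK5 protein in both lines by Western blot, which RNA levels do not measure. Each direction below refers to libraries labelled ERK5-ko. MAP2K5 was 188 and 184 RPKM in libraries labelled MEK5DD and 12.9 and 13.6 in parental controls of MDA-MB-231 (log2 fold change 3.77, adjusted p = 3.31e-10, limma). In Hs-578T it was 21.3 and 23.8 against 14.6 and 16.9 (log2 fold change 0.50, adjusted p = 0.00492, limma), so the label rests on a far smaller difference in that line.

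The libraries held between 20248162 and 27791195 reads as solved from the RPKM steps, of which 92.0% to 94.5% lay on listed genes. ESR1 and PGR were under 1 RPKM in every library, as the triple-negative label requires, and VIM, a marker of mesenchymal cells, lay between 1598 and 4067 RPKM, while ERBB2 RNA was present at 27.8 to 56.8 RPKM. The summed level of the 8 listed immune markers was 57.1 to 69.5 RPKM in ERK5-ko and 70.8 to 77.9 in parental libraries of MDA-MB-231, and 26.0 to 28.7 against 43.6 to 47.8 in Hs-578T, with CD3E under 0.1 RPKM throughout. The 6 endothelial markers summed to 1.07 to 1.24 RPKM in ERK5-ko and 2.37 to 2.5 in parental libraries of MDA-MB-231, and to 6.86 to 7.14 against 6 to 6.54 in Hs-578T. The 5 adipocyte markers summed to at most 0.209 RPKM in MDA-MB-231 and to 26.2 to 26.6 in Hs-578T libraries labelled ERK5-ko, nearly all of it FABP4, with ADIPOQ at or near 0. The part of these markers in the results was not tested.

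Both libraries labelled ERK5-ko lay above both parental libraries for 41 of 41 members in each line. The same was true of 100% of the 351 genes that passed in MDA-MB-231 alone and 99.5% of the 1278 in Hs-578T alone, each in its own line. The order is thus nearly given by the rule. This non-overlap held for 27.1% of all tested genes in MDA-MB-231, against 35.6% for Hs-578T, and since the members were selected on this contrast it is a description without a test. In bulk RNA, more cells with a gene on and more RNA per cell cannot be told apart. Ranked by the smaller of their differences in the 2 lines, ACTBL2 came first, with ERK5-ko minus parental differences on the log2 scale of 1.99 for MDA-MB-231 and 2.0 for Hs-578T. NELL2 followed with 1.60 and 3.18, GPRC5A with 1.34 and 1.5, RGS5 with 2.93 and 1.17, and F3 with 1.27 and 1.16. TRIM29, RARRES2, CPA4, FAM19A2, KRT7 and GPRC5B complete the 11 members that were at least 2-fold higher in both lines on this scale. At the other end, the members just inside the limit were SLC37A1, NEURL1 and UGCG, with smaller differences of 0.601, 0.609 and 0.611. CACNA2D1, SORBS2 and EEF1A2 were just outside it, with smaller differences of 0.584, 0.575 and 0.569.

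**Figure D1:**
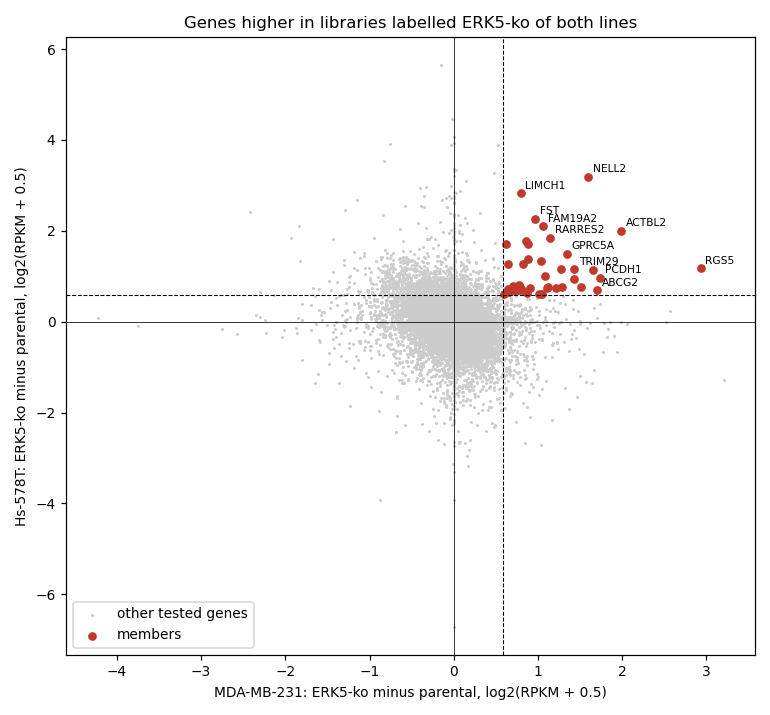
ERK5-ko minus parental difference of mean log2(RPKM + 0.5) in MDA-MB-231 (horizontal axis) and Hs-578T (vertical axis) for each of 13737 tested genes, with the 41 members in red and dashed lines at 0.585. The members fill the corner that the rule defines, with RGS5 farthest along the MDA-MB-231 axis at 2.93 and NELL2 farthest along the Hs-578T axis at 3.18.

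In the libraries labelled MEK5DD, the members moved differently in the 2 lines. In MDA-MB-231, 23 of 41 members (56.1%) were lower in MEK5DD than in parental controls and 3 (7.32%) were higher in limma (adjusted p under 0.05 and at least 1.5-fold), against 14% lower and 7.63% higher among all tested genes. In Hs-578T, 4 members (9.76%) were lower and 6 (14.6%) were higher by the same rule, against 6.46% lower and 2.90% higher among all tested genes. The median MEK5DD log2 fold change of the members was -0.78 for MDA-MB-231 and 0.08 for Hs-578T, beside -0.01 and -0.08 for all tested genes. These comparisons share their parental libraries with the contrast that chose the members, so the shares are given side by side and no test was made of the list. Marker genes moved with MEK5DD too. VIM was 3418 to 3492 RPKM in MEK5DD and 1610 to 1751 in parental libraries of MDA-MB-231, against 3469 to 4067 and 3433 to 3608 in Hs-578T. The summed immune markers were 112 to 114 RPKM in MEK5DD and 70.8 to 77.9 in parental libraries of MDA-MB-231, against 45.1 to 56.2 and 43.6 to 47.8 in Hs-578T, and the endothelial markers 3.20 to 3.24 and 2.37 to 2.5 in MDA-MB-231 against 3.54 to 3.68 and 6 to 6.54 in Hs-578T. Their part in the members' changes was not tested. A change on the log2(RPKM + 0.5) scale understates that of weakly expressed genes. The exact permutation p of 1 gene could not go under 0.333 in groups of 2, and the fit drew on all 12 libraries to estimate the spread.

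**Figure D2:**
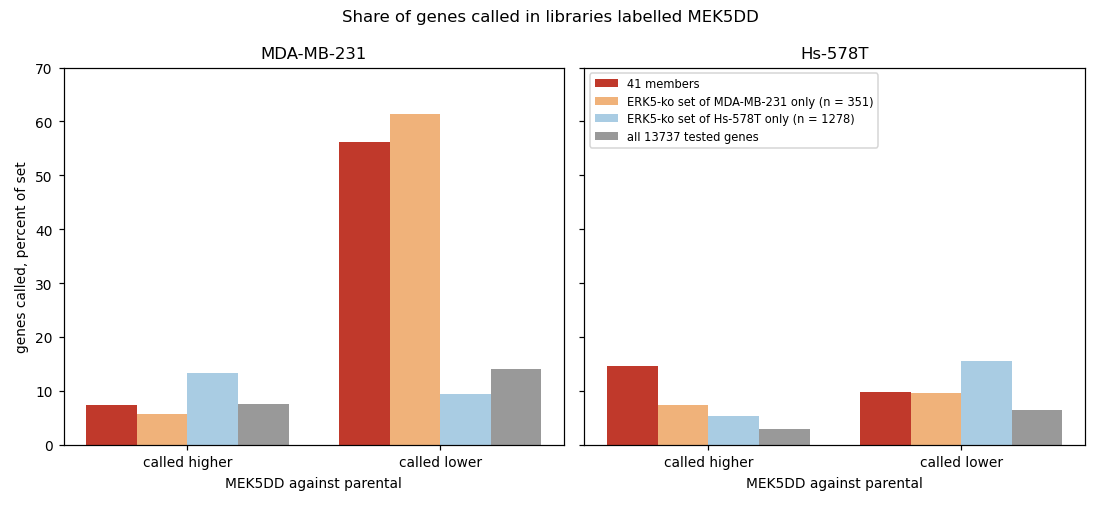
Percent of genes called higher or lower in libraries labelled MEK5DD against parental controls (adjusted p under 0.05 and at least 1.5-fold, limma), for the 41 members, the 351 and 1278 genes that passed the ERK5-ko difference in a single line, and all 13737 tested genes. In MDA-MB-231 the members' 56.1% called lower stands beside 61.3% for the genes of that line alone and 14% for all genes.

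A high share of lower genes in MDA-MB-231 was also seen among genes of that line alone. Of the 351 genes that passed the ERK5-ko difference in MDA-MB-231 and not in Hs-578T, 61.3% were lower in MEK5DD of MDA-MB-231, with a median log2 fold change of -0.93. Of the 1278 genes that passed it in Hs-578T and not in MDA-MB-231, 15.6% were lower and 5.32% higher in MEK5DD of Hs-578T, with a median of -0.12. The difference of the MEK5DD effect between the lines, tested as a contrast of contrasts in the same limma fit, passed an adjusted p under 0.05 for 34 of the 41 members (82.9%), against 39.6% of all tested genes and 71.2% of the 351 genes of MDA-MB-231 alone. Taken line by line, 18 members (43.9%, against 12.3% of all tested genes) were lower in MDA-MB-231 MEK5DD and not called in Hs-578T. Lower in the first line and higher in the second were 4 (9.76% against 0.590%), and 1 was lower in both (2.44% against 1.11%). Another 3 (7.32% against 6.30%) were higher in MDA-MB-231 and not called in Hs-578T. Called in Hs-578T and not in MDA-MB-231 were 2 as higher (4.88% against 1.83%) and 3 as lower (7.32% against 4.49%). The remaining 10 (24.4% against 72.1%) were called in neither line. By limma, 0 members were called higher in MEK5DD of both lines, against 0.473% of all tested genes. TRIML2 and CDKN1A were the 2 members with an unadjusted p under 0.05 and a positive change in both. On the recovered reads, limma-voom called 1 member, TRIML2, higher in both lines. In Hs-578T this call rests on 1 and 5 reads in MEK5DD against 0 and 0 in parental controls.

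**Figure D3:**
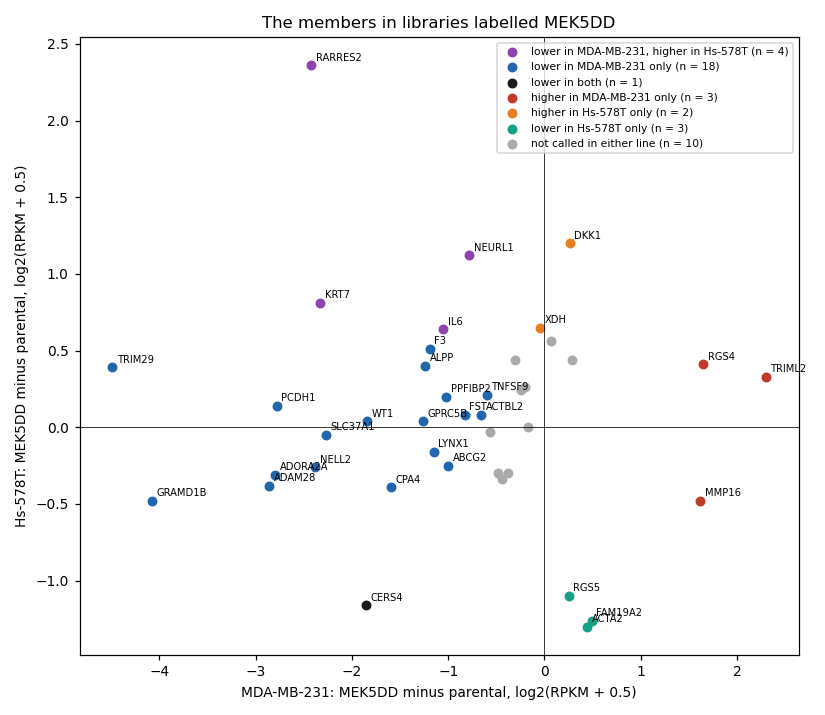
MEK5DD minus parental difference of mean log2(RPKM + 0.5) for the 41 members, MDA-MB-231 on the horizontal and Hs-578T on the vertical axis, coloured by the call in each line (adjusted p under 0.05 and at least 1.5-fold, limma). Most members lie left of 0, RARRES2 sits alone at the upper left with -2.42 and 2.36, and CERS4 is the member called lower in both lines.

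Set against each other directly, both libraries labelled ERK5-ko lay above both libraries labelled MEK5DD for 38 of 41 members in MDA-MB-231 and for 37 in Hs-578T. Those are 92.7% and 90.2% of the members, and among all tested genes this held for 38.6% and 43.4%. It held for 94.9% of the 351 genes of MDA-MB-231 alone and 94.1% of the 1278 of Hs-578T alone, each in its own line. The reverse order, ERK5-ko below MEK5DD, was seen for 3 members in MDA-MB-231, namely TRIML2, RGS4 and MMP16, and for 2 in Hs-578T, RARRES2 and NEURL1, against 42.6% and 28.3% of all tested genes. In Hs-578T the libraries of RGS4 and XDH overlapped. The ERK5-ko libraries chose the members, so these counts are descriptive too.

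**Figure D4:**
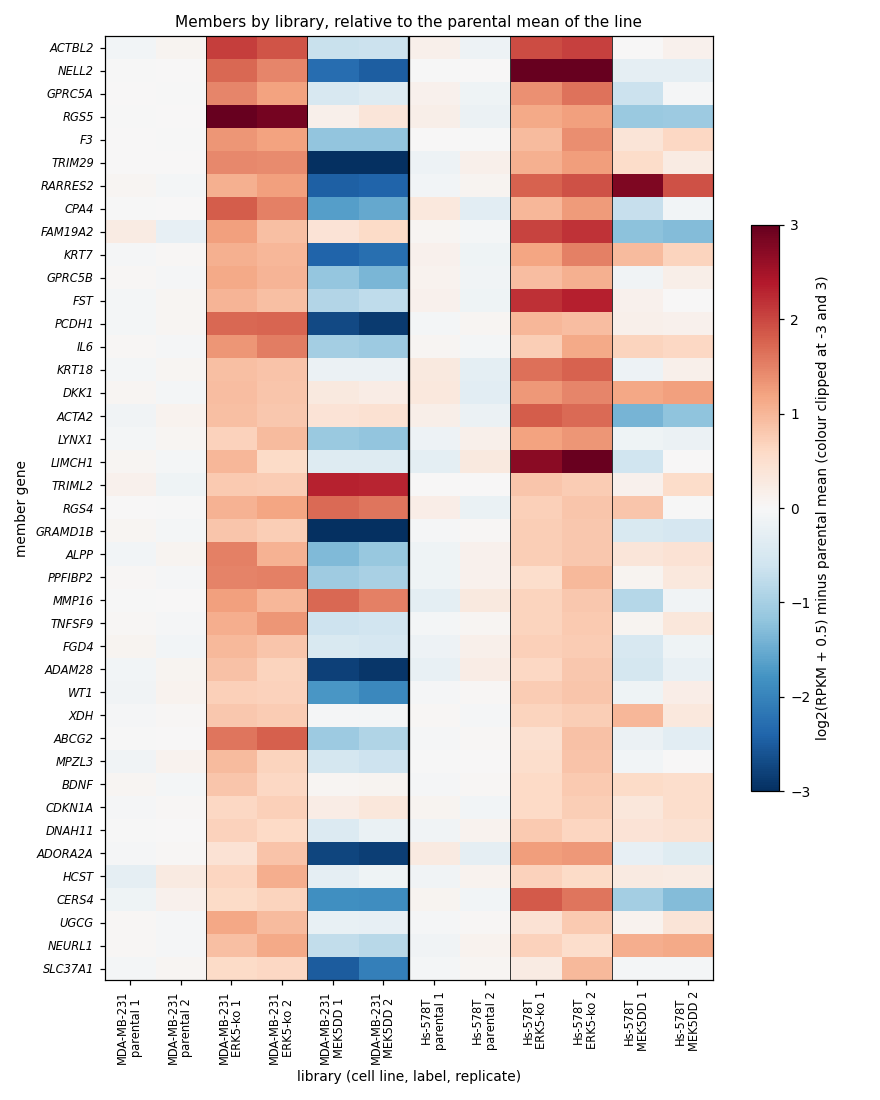
log2(RPKM + 0.5) of each of the 41 members (rows, ordered by the smaller ERK5-ko difference of both lines) in each of the 12 libraries (columns), minus the parental mean of the same line. The ERK5-ko columns are red in both lines by the rule, whereas the MEK5DD columns are mostly blue in MDA-MB-231 and mixed in Hs-578T.

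The promoters of 29 of the 41 members were found in RefSeq for GRCh38.p14, each covering 250 bases before and 50 after the annotated start. Those of F3, CPA4 and FST are shown since they hold the AP-1 letters TGANTCA, a site of FOS and JUN proteins, of which FOS is a known ERK5 target, and since these members stood among the most changed in ERK5-ko. TGANTCA reads the same on both strands and was found in 4 of 29 member promoters (13.8%), the other being TRIML2, against 7.71% of all 35116 promoters. The 35116 promoters were not limited to the tested genes, and only the first window listed for a member was used. The shares of members and of all promoters, here and below, thus compare unlike sets. Capitals mark TGANTCA on either strand and the TATA letters TATAAA on the sense strand.
F3: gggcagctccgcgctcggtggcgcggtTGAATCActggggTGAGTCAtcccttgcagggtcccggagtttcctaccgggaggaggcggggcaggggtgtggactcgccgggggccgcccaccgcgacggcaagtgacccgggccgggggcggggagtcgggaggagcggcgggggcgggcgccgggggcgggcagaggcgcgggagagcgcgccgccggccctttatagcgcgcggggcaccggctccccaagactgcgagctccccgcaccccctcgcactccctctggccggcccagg
CPA4: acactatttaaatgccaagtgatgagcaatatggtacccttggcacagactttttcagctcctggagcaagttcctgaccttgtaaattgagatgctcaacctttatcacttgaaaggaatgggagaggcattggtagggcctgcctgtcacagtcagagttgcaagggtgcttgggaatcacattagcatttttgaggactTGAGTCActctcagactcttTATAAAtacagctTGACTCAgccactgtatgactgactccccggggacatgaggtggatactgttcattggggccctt
FST: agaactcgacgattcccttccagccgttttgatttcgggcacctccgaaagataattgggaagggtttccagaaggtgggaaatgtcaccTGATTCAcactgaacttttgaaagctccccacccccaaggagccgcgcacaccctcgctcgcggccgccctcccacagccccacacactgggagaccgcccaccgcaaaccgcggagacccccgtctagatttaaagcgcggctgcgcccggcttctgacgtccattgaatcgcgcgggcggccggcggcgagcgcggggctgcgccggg
They lie at chr1:94541710-94542009 (minus strand), chr7:130292911-130293210 (plus strand) and chr5:53480379-53480678 (plus strand) of GRCh38.p14. Counted from the start, the matches begin at -223 and -210 in F3, the starter of blood coagulation, at -48 and -15 in CPA4, a carboxypeptidase, and at -160 in FST, the activin-binding protein follistatin. CPA4 also holds TATAAA at -28.

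Other letters were searched on both strands of the same windows. TATAAA was found in 5 of 29 member promoters (17.2%, against 11.5% of all promoters), those of F3, CPA4, FAM19A2, DKK1 and TNFSF9. The TEAD letters GGAATG were in 8 (27.6% against 14%), the E-box letters CAGGTG in 8 (27.6% against 20.6%), the SP1 letters GGGCGG in 18 (62.1% against 45.0%) and CCAAT in 7 (24.1% against 34.6%). The NF-kB core was in 10 (34.5% against 25.6%), CACGTG in 1 (3.45% against 7.26%) and the STAT letters TTCNNNGAA in 2 (6.90% against 7.66%). The long KLF letters CCACACCC were in 3 (10.3% against 3.28%), those of F3, ALPP and WT1, and the short letters CCACCC, which do not lie within the long ones, in 8 (27.6% against 34.3%). The MEF2 motif was in 1 (3.45% against 2.99%), that of BDNF, while the ETS letters CCGGAAG (10.3% of all promoters), TGACGTCA (1.85%) and the SRF CArG box (1.29%) were in 0. The median GC content was 58.0% in member promoters and 58.7% in all. These matches describe letters in the windows and say nothing of binding. NELL2, GPRC5A, TRIM29, KRT7, KRT18, LYNX1, GRAMD1B, MMP16, ADAM28, MPZL3, ADORA2A and CERS4 had no matched entry.

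Values by library are given below in RPKM, and where 3 pairs follow each other they are those of the 2 parental, the 2 ERK5-ko and the 2 MEK5DD libraries, in this order. Keratins and other genes of epithelial cells stood among the members, although the list of 34 tested epithelial junction and keratin genes moved both ways. In ERK5-ko of each line 6 of them passed 1.5-fold upward and 4 downward, with median differences of 0.29 for MDA-MB-231 and -0.00 for Hs-578T. Among all tested genes, 2.85% passed upward and 5.25% downward for MDA-MB-231, against 9.60% and 9.84% for Hs-578T. With MEK5DD, limma called 20 of the list lower and 3 higher for MDA-MB-231 (median -0.89). For Hs-578T it called 2 lower and 9 higher (median 0.02). The MEK5DD fall of KRT7 given next was thus shared by many genes of its list. KRT7 (ENSG00000135480.14, chromosome 12, 52232520 to 52252186 of GRCh38), a type II keratin of simple epithelia, had the highest mean RPKM of the members in parental controls and ERK5-ko of MDA-MB-231 (836 and 1718), whereas KRT18 had it in each group of Hs-578T and DKK1 in MEK5DD of MDA-MB-231 (338). In MDA-MB-231 its RPKM was 817 and 855 in parental controls, 1761 and 1676 in ERK5-ko and 158 and 173 in MEK5DD, and no groups overlapped. It fell in MEK5DD of MDA-MB-231 (log2 fold change -2.33, standard error 0.134, adjusted p = 1.26e-07, limma). The Hs-578T RPKM was 12.8 and 10.5 in parental controls, 26.9 and 33.9 in ERK5-ko and 22.8 and 18.7 in MEK5DD. There it rose in MEK5DD (log2 fold change 0.81, adjusted p = 0.0016, limma), although in a fit of the Hs-578T libraries alone the adjusted p was 0.0552. KRT18 (ENSG00000111057.10, chromosome 12, 52948871 to 52952901), a type I keratin of the same epithelia, lay 0.697 Mb from KRT7. Its RPKM was 356 and 384 in parental controls, 692 and 671 in ERK5-ko and 328 and 328 in MEK5DD of MDA-MB-231, and 213 and 141, 547 and 596, and 157 and 192 in Hs-578T. In both lines the KRT18 values of MEK5DD lay near those of parental controls, with log2 fold changes of -0.17 and 0.00 (adjusted p = 0.441 and 1.0, limma). KRT8 overlaps 16.3% of its exon bases on the opposite strand.

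TRIM29 (chromosome 11, 120111275 to 120185529), a tripartite motif protein of stratified and basal epithelia, had the largest fall of any member in MEK5DD. In MDA-MB-231 its RPKM was 27.6 and 27.6 in parental controls, 75.3 and 75.0 in ERK5-ko and 0.672 and 0.838 in MEK5DD (log2 fold change -4.49, standard error 0.142, adjusted p = 1.2e-09, limma). Its RNA was near the limit of detection in Hs-578T, at 0.177 and 0.341, 1.08 and 1.29, and 0.599 and 0.394 RPKM, the parental values resting on 4 and 7 reads. PCDH1, a protocadherin of cell adhesion, had 6.53 and 7.03 RPKM in parental controls, 23.4 and 24.1 in ERK5-ko and 0.623 and 0.499 in MEK5DD of MDA-MB-231 (log2 fold change -2.78 for MEK5DD, adjusted p = 4.99e-09, limma). Its Hs-578T values were all under 1 RPKM. PPFIBP2, a liprin, fell in MEK5DD of MDA-MB-231 as well, from 10.8 and 10.4 RPKM to 4.82 and 5.15, whereas its ERK5-ko libraries held 30.7 and 31.3. MPZL3, an immunoglobulin-like membrane protein, had at most 0.455 RPKM in any Hs-578T library, with 1 read in each parental control.

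Actins and genes of the contractile cytoskeleton were members as well. Of the 29 tested actin cytoskeleton genes, 2 passed 1.5-fold upward and 2 downward in ERK5-ko of MDA-MB-231, against 10 and 2 in Hs-578T. ACTA2 was also the member of the 23 tested genes on a list of epithelial-to-mesenchymal transition and mesenchymal genes. Of that list, 2 passed upward and 2 downward in MDA-MB-231, against 5 and 5 in Hs-578T. The shares of all tested genes are given above with the keratins. ACTA2 (ENSG00000107796.12, chromosome 10, 88935074 to 88991390), the smooth muscle actin, had 157 and 124 RPKM in parental controls, 495 and 457 in ERK5-ko and 52.5 and 60.6 in MEK5DD of Hs-578T. It fell in MEK5DD of Hs-578T (log2 fold change -1.30, standard error 0.125, adjusted p = 4.86e-05, limma). For MDA-MB-231, where it was far less abundant, its RPKM was 2.68 and 3.16 in parental controls, 5.86 and 5.5 in ERK5-ko and 4.06 and 4.16 in MEK5DD, a log2 fold change for MEK5DD of 0.44 (adjusted p = 0.0156), under the fold limit. The MEK5DD effect of ACTA2 thus differed between the lines by 1.73 (adjusted p = 2.24e-05, limma). ACTBL2 (chromosome 5, 57480016 to 57482809), a close relative of beta-actin, was low in all libraries. Its RPKM was 0.275 and 0.374 in parental controls, 2.98 and 2.55 in ERK5-ko and 0.0149 and 0.0258 in MEK5DD of MDA-MB-231, the last from 1 and 2 reads (log2 fold change -0.66 for MEK5DD, adjusted p = 0.00141, limma). Its Hs-578T values were 0.909 and 0.657, 4.45 and 4.79, and 0.796 and 0.907 RPKM. Reads of near-identical actin genes may be shared, so the values of ACTBL2 are uncertain.

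LIMCH1, an activator of non-muscle myosin, had the second largest ERK5-ko difference in Hs-578T, 2.83 on the log2 scale, after NELL2. Its RPKM there was 2.90 and 4.58 in parental controls, 26.6 and 31.7 in ERK5-ko and 2.23 and 3.68 in MEK5DD. In MDA-MB-231 it was 83.3 and 76.9, 161 and 120, and 61.5 and 61.5, and MEK5DD passed the test in neither line. FGD4, an exchange factor for the small GTPase CDC42, ranged from 1.08 to 3.90 RPKM in MDA-MB-231 and from 3.81 to 9.54 in Hs-578T and was likewise called in neither line.

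Receptors and regulators of G protein signalling made up the group with the most members from any of 35 gene lists. Of the 34 tested genes of that list, 4 (11.8%) were members, beside 0.298% of all tested genes. The lists were chosen with earlier results of these data known, so these shares are a description without a test. By its median this list did not rise with ERK5-ko. The median difference was -0.01 for MDA-MB-231, where 6 genes passed 1.5-fold upward and 2 downward. For Hs-578T it was -0.10, with 6 upward and 6 downward. GPRC5A (ENSG00000013588.5, chromosome 12, 12890782 to 12917937), an orphan receptor induced by retinoic acid, had 87.7 and 87.2 RPKM in parental controls, 242 and 204 in ERK5-ko and 62.7 and 66.4 in MEK5DD of MDA-MB-231. Hs-578T held 11.6 and 9.78, 28.3 and 33.9, and 6.64 and 10.4 RPKM. MEK5DD of GPRC5A passed the test in neither line, with log2 fold changes of -0.44 and -0.34 (adjusted p = 0.0664 and 0.191, limma). GPRC5B, its relative, had 2.24 and 2.09 RPKM in parental controls, 5.40 and 4.93 in ERK5-ko and 0.697 and 0.535 in MEK5DD of MDA-MB-231 and fell there (log2 fold change -1.26, adjusted p = 1.68e-05, limma). In Hs-578T its parental and MEK5DD libraries overlapped, at 9.28 and 8.06 against 8.02 and 9.90 RPKM, with 16.9 and 18.8 in ERK5-ko. IQCK overlaps 26.7% of the exon bases of GPRC5B on the opposite strand.

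RGS4 and RGS5, which shorten G protein signals by speeding GTP hydrolysis, lie 34319 bases apart on chromosome 1 and were called in different lines in MEK5DD. RGS5 (163111121 to 163321791) had 3.06 and 3.17 RPKM in parental controls, 28.5 and 25.9 in ERK5-ko and 3.49 and 4.13 in MEK5DD of MDA-MB-231. In Hs-578T it had 11.5 and 8.78, 22.6 and 24.1, and 4.39 and 4.43 RPKM and fell in MEK5DD (log2 fold change -1.10, adjusted p = 0.000207, limma). RGS4 (163068775 to 163076802) had 7.23 and 7.07 RPKM in parental controls, 15.2 and 16.9 in ERK5-ko and 24.3 and 22.6 in MEK5DD of MDA-MB-231. It rose in MEK5DD of that line (log2 fold change 1.65, standard error 0.220, adjusted p = 0.000108, limma), so that both engineered groups lay above the parental controls. In Hs-578T the 2 MEK5DD libraries of RGS4 differed from each other, 4.09 and 2.06 RPKM, and overlapped both other groups at 2.45 and 1.75 and at 3.75 and 4.06.

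ADORA2A, an adenosine receptor coupled to stimulatory G protein, had 9.27 and 9.89 RPKM in parental controls, 13.1 and 17.8 in ERK5-ko and 0.987 and 0.915 in MEK5DD of MDA-MB-231 (log2 fold change -2.80 for MEK5DD, adjusted p = 2.29e-07, limma). Its Hs-578T values were 11.4 and 7.74, 23.2 and 23.8, and 7.84 and 7.18 RPKM. A read-through transcript with SPECC1L shares 56.8% of its exon bases on the same strand, so part of these reads may belong to that transcript. LYNX1, a membrane-anchored modulator of nicotinic receptors, fell in MEK5DD of MDA-MB-231 from 0.648 and 0.751 RPKM to 0.0579 and 0.0251, the latter resting on 2 and 1 reads. Its ERK5-ko libraries held 1.45 and 1.81 RPKM in MDA-MB-231 and 7.93 and 8.73 in Hs-578T.

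**Figure D5:**
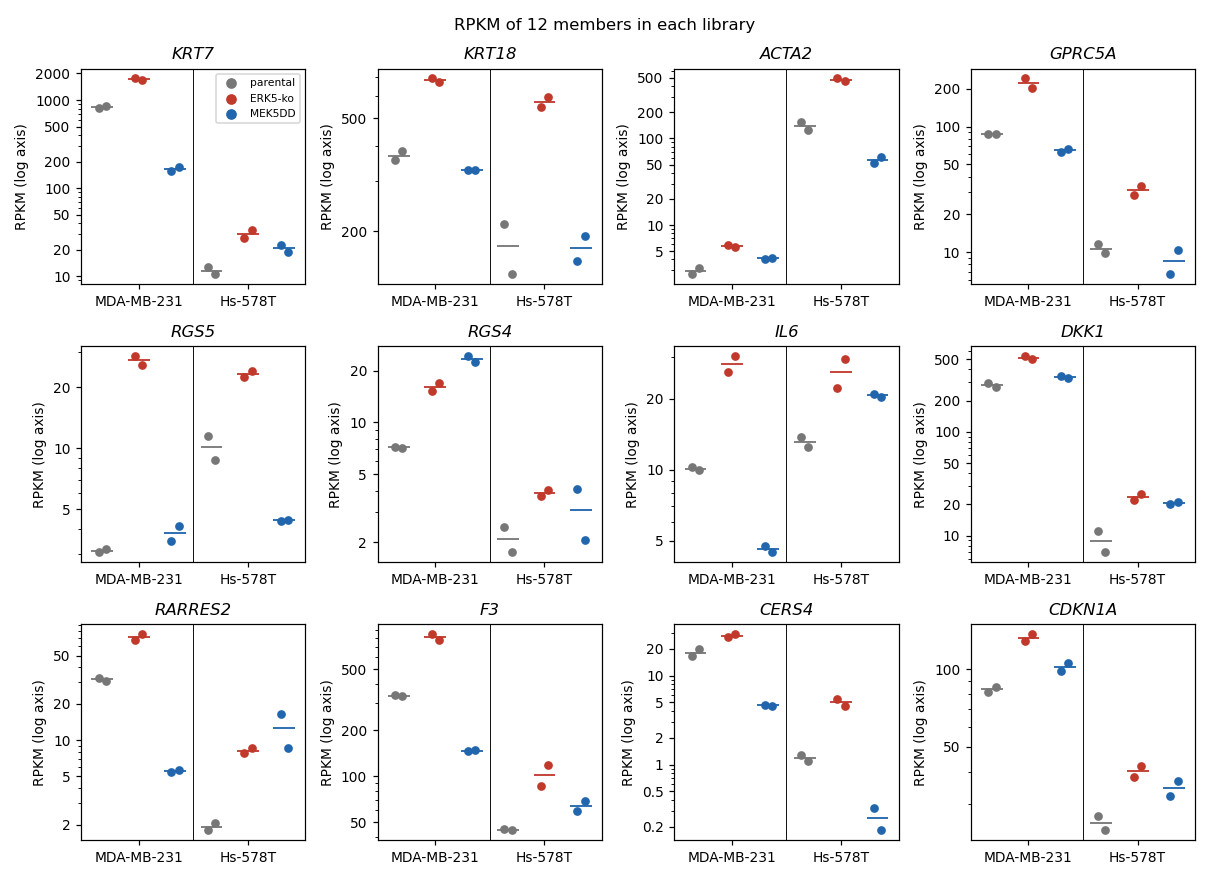
RPKM of 12 members on a log axis in each of the 12 libraries, with parental controls in grey, ERK5-ko in red and MEK5DD in blue, points for libraries and lines for the mean of 2. In MDA-MB-231 the blue points of KRT7, IL6, RARRES2, F3 and CERS4 lie below the grey ones, while those of RGS4 lie above the red ones at 24.3 and 22.6.

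Secreted ligands and their inhibitors formed another group. IL6 (ENSG00000136244.11, chromosome 7, 22725884 to 22732002), an inflammatory cytokine that signals through gp130, had 10.3 and 9.93 RPKM in parental controls, 25.9 and 30.2 in ERK5-ko and 4.77 and 4.47 in MEK5DD of MDA-MB-231. Its RPKM in Hs-578T was 13.7 and 12.5, 22.2 and 29.4, and 21.0 and 20.4. IL6 fell in MEK5DD of MDA-MB-231 (log2 fold change -1.05, adjusted p = 6.05e-05) and rose in MEK5DD of Hs-578T (0.64, adjusted p = 0.00529, limma), where in a fit of that line alone the adjusted p was 0.0695. The effects differed between the lines by -1.69 (adjusted p = 3.61e-05, limma). It was the member of the 23 tested chemokine and cytokine genes. On the opposite strand, an antisense gene covers 20.7% of the exon bases of IL6 and STEAP1B covers 2.22%.

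RARRES2 (ENSG00000106538.9, chromosome 7, 150338317 to 150341674), which encodes the chemoattractant chemerin, showed the widest split of the members called in both lines. Its RPKM was 32.9 and 30.7 in parental controls, 67.1 and 75.2 in ERK5-ko and 5.40 and 5.62 in MEK5DD of MDA-MB-231. In Hs-578T it was 1.79 and 2.06, 7.78 and 8.59, and 16.5 and 8.64, so both MEK5DD libraries lay above both ERK5-ko libraries although 1 of them by little. RARRES2 fell in MEK5DD of MDA-MB-231 (log2 fold change -2.42, standard error 0.215, adjusted p = 4.23e-06, limma). It rose in MEK5DD of Hs-578T (2.36, adjusted p = 3.16e-05, limma), and the difference between the lines was -4.79 (adjusted p = 6.5e-07, limma).

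DKK1, a secreted inhibitor of Wnt signalling that binds LRP6, had 295 and 271 RPKM in parental controls, 535 and 504 in ERK5-ko and 348 and 328 in MEK5DD of MDA-MB-231, where MEK5DD did not pass the test (log2 fold change 0.26, adjusted p = 0.229, limma). In Hs-578T it had 11 and 6.89, 22.1 and 25.0, and 20.1 and 21.1 RPKM and rose in MEK5DD (log2 fold change 1.2, adjusted p = 0.000469, limma). It was the member of the 29 tested Wnt pathway genes. FST, whose promoter is printed above, had 37.9 and 40.6 RPKM in parental controls, 80.4 and 73.9 in ERK5-ko and 21.0 and 22.8 in MEK5DD of MDA-MB-231 and fell there in MEK5DD (log2 fold change -0.83, adjusted p = 9.29e-05, limma). In Hs-578T its ERK5-ko libraries held 79.1 and 86.9 RPKM, well apart from 18.6 and 15.3 in parental controls and 18.6 and 17.1 in MEK5DD.

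NELL2, a secreted glycoprotein of the nervous system, had 4.92 and 4.98 RPKM in parental controls, 17.5 and 14.5 in ERK5-ko and 0.625 and 0.474 in MEK5DD of MDA-MB-231 (log2 fold change -2.38 for MEK5DD, adjusted p = 9.4e-08, limma). In Hs-578T it rested on 6 and 6 reads in parental controls and 2 and 2 in MEK5DD, while its ERK5-ko libraries held 5.04 and 6.26 RPKM. FAM19A2, a secreted chemokine-like protein of the brain, was most abundant in Hs-578T, at 8.37 and 7.68 RPKM in parental controls, 34.1 and 37.9 in ERK5-ko and 3.14 and 2.98 in MEK5DD. It fell in MEK5DD of Hs-578T (log2 fold change -1.26, adjusted p = 0.000333, limma), whereas in MDA-MB-231 its RPKM was 0.666 and 0.339, 1.81 and 1.35, and 0.815 and 0.962. BDNF, a neurotrophin, had 7.41 and 6.75, 12.9 and 11.2, and 7.42 and 7.48 RPKM in parental, ERK5-ko and MEK5DD libraries of MDA-MB-231, and 2.96 and 3.17, 4.86 and 5.61, and 4.81 and 4.67 in Hs-578T. Its MEK5DD log2 fold change in Hs-578T was 0.56 (adjusted p = 0.00495, limma), just under the fold limit.

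TNFSF9, the ligand of the T cell receptor 4-1BB, had 4.53 and 4.31 RPKM in parental controls, a mean of 10.9 in ERK5-ko and 2.68 and 2.80 in MEK5DD of MDA-MB-231, and fell there in MEK5DD (log2 fold change -0.60, adjusted p = 0.00197, limma). Hs-578T held 5.35 and 5.75 RPKM in parental controls, a mean of 9.56 in ERK5-ko and 5.91 and 7.10 in MEK5DD. HCST, the adaptor DAP10 of immune cells, was the least abundant member, with at most 13 reads in any library and under 1 RPKM throughout. The summed immune markers were not higher in ERK5-ko than in parental libraries of either line, as given above.

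Genes of coagulation and proteolysis were members too. F3 (ENSG00000117525.13, chromosome 1, 94529225 to 94541800), tissue factor, had 339 and 334 RPKM in parental controls, 850 and 778 in ERK5-ko and 147 and 148 in MEK5DD of MDA-MB-231. It fell in MEK5DD of that line (log2 fold change -1.19, standard error 0.129, adjusted p = 2.12e-05, limma). Its values in Hs-578T were 45.3 and 44.3, 86.9 and 118, and 59.1 and 69.2 RPKM, a MEK5DD log2 fold change of 0.51 (adjusted p = 0.0157), under the fold limit. F3 was the member of the 21 tested genes on a list of YAP and TEAD targets. CPA4, which trims amino acids from the ends of peptides, had 28.9 and 29.2 RPKM in parental controls, 103 and 83.1 in ERK5-ko and 8.95 and 9.63 in MEK5DD of MDA-MB-231 (log2 fold change -1.59 for MEK5DD, adjusted p = 0.000143, limma). In Hs-578T its parental libraries spread from 24.4 to 38.6 RPKM and overlapped the MEK5DD libraries at 18.8 and 28.8, below 61.4 and 74.9 in ERK5-ko.

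The 2 membrane proteases among the members moved in opposite directions in MEK5DD of MDA-MB-231. MMP16, a membrane-type matrix metalloproteinase, rose there, from 0.456 and 0.466 RPKM in parental controls to 2.67 and 2.26 in MEK5DD, with 1.76 and 1.41 in ERK5-ko (log2 fold change 1.62 for MEK5DD, adjusted p = 0.000188, limma). ADAM28, a disintegrin and metalloproteinase, fell from 3.87 and 4.43 RPKM to 0.162 and 0.117, with 8.08 and 6.88 in ERK5-ko (log2 fold change -2.86 for MEK5DD, adjusted p = 1.02e-07, limma). In Hs-578T the RPKM of MMP16 was larger than in MDA-MB-231 in every library, at 14.8 and 22.5 RPKM in parental controls, 29.3 and 32.3 in ERK5-ko and 9.86 and 17.0 in MEK5DD, and neither gene was called there.

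Regulators of transcription, the cell cycle and protein turnover made up the next group. CDKN1A (ENSG00000124762.13, chromosome 6, 36676460 to 36687339), the p53 target p21 that inhibits cyclin-dependent kinases, had the same ERK5-ko difference of 0.66 in both lines. Its RPKM was 81.9 and 85.7 in parental controls, 129 and 137 in ERK5-ko and 98.5 and 106 in MEK5DD of MDA-MB-231. Its Hs-578T RPKM was 27 and 23.7, 38.3 and 42.2, and 32.1 and 36.9. MEK5DD lay between parental and ERK5-ko in both lines, with log2 fold changes of 0.29 and 0.44 (adjusted p = 0.0402 and 0.0101, limma), under the fold limit. CDKN1A was the member of the 22 tested p53 targets. It also stood on the list of cell cycle and mitosis genes, of which 15 of 37 were at least 1.5-fold lower in ERK5-ko of MDA-MB-231 (5.25% of all tested genes) and 25 were at least 1.5-fold higher in ERK5-ko of Hs-578T (9.60% of all tested genes).

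WT1, a zinc finger transcription factor, had 5.66 and 6.55 RPKM in parental controls, 10.3 and 10.1 in ERK5-ko and 1.46 and 1.23 in MEK5DD of MDA-MB-231 and fell there in MEK5DD (log2 fold change -1.84, adjusted p = 7.18e-07, limma). In Hs-578T its parental libraries at 1.76 and 1.84 RPKM and its MEK5DD libraries at 1.61 and 2.16 overlapped, below 3.37 and 3.57 in ERK5-ko. NEURL1, a ubiquitin ligase that acts on Notch ligands, had 0.450 and 0.400 RPKM in parental controls, 1.22 and 1.52 in ERK5-ko and 0.0543 and 0.0236 in MEK5DD of MDA-MB-231, the last from 2 and 1 reads, and fell there (log2 fold change -0.78, adjusted p = 0.000353, limma). In Hs-578T it rose in MEK5DD (1.12, adjusted p = 0.000123, limma), to 4.39 and 4.52 RPKM from 1.63 and 1.96, with 3.21 and 2.78 in ERK5-ko. TRIML2, a tripartite motif-like protein, rose in MEK5DD of MDA-MB-231 from 0.265 and 0.135 to 2.95 and 2.90 RPKM (log2 fold change 2.30, adjusted p = 1.84e-07, limma), above 0.704 and 0.674 in ERK5-ko. It had 0 reads in both parental controls of Hs-578T, 11 and 9 in ERK5-ko and 1 and 5 in MEK5DD.

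Enzymes of ceramide metabolism and transporters came next. CERS4 (ENSG00000090661.11, chromosome 19, 8206736 to 8262421), a ceramide synthase, was the member called lower in MEK5DD of both lines. In MDA-MB-231 its RPKM was 16.5 and 19.8 in parental controls, 27.1 and 29.1 in ERK5-ko and 4.71 and 4.6 in MEK5DD (log2 fold change -1.85 for MEK5DD, standard error 0.138, adjusted p = 1.01e-06, limma). Its Hs-578T RPKM was 1.27 and 1.09, 5.5 and 4.57, and 0.324 and 0.183 (log2 fold change -1.16 for MEK5DD, adjusted p = 0.000207, limma). The 3 groups of CERS4 kept the order ERK5-ko, parental, MEK5DD without overlap in both lines. UGCG, which turns ceramide into glucosylceramide, had 178 and 168, 388 and 334, and 148 and 146 RPKM in parental, ERK5-ko and MEK5DD libraries of MDA-MB-231, and 77.0 and 80.0, 106 and 136, and 84.4 and 102 in Hs-578T, and MEK5DD was called in neither line.

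GRAMD1B, which carries cholesterol from the plasma membrane to the endoplasmic reticulum, fell in MEK5DD of MDA-MB-231 from 22.9 and 21.1 RPKM to 0.793 and 0.853, with 39.8 and 36.9 in ERK5-ko (log2 fold change -4.08 for MEK5DD, adjusted p = 2.79e-10, limma). In Hs-578T it was also lower in MEK5DD, at 0.0377 and 0.0186 RPKM from 2 and 1 reads against 0.217 and 0.258 from 13 and 14 reads in parental controls (log2 fold change -0.48, adjusted p = 0.0071, limma), which is under the fold limit on the log2(RPKM + 0.5) scale. ABCG2, an efflux transporter of drugs, had 2.24 and 2.26 RPKM in parental controls, 7.83 and 9.07 in ERK5-ko and 0.783 and 0.966 in MEK5DD of MDA-MB-231 (log2 fold change -1.0 for MEK5DD, adjusted p = 0.000185, limma). Hs-578T held 2.02 and 2.16, 3.14 and 4.30, and 1.80 and 1.57 RPKM. SLC37A1, a carrier of glucose-6-phosphate, fell in MEK5DD of MDA-MB-231 from 9.48 and 10.4 to 1.35 and 2.01 RPKM (log2 fold change -2.27, adjusted p = 4.47e-06, limma). Its place among the members rests in Hs-578T on 4 and 16 reads in ERK5-ko against 0 and 1 in parental controls.

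ALPP, placental alkaline phosphatase, fell in MEK5DD of MDA-MB-231 from 2.05 and 2.33 to 0.565 and 0.713 RPKM, with 7.14 and 5.07 in ERK5-ko. Its reads may be shared with closely similar alkaline phosphatase genes, and an antisense gene covers 20.6% of its exon bases. XDH, the xanthine dehydrogenase of purine breakdown, was called higher in MEK5DD of Hs-578T (log2 fold change 0.65, adjusted p = 0.0204, limma) from 0.664 and 0.218 RPKM against 0.0980 and 0.0648. In a fit of the Hs-578T libraries alone it was not called (adjusted p = 0.128, limma). The call was lost without either of 2 libraries, as the log2 fold change was 0.31 (adjusted p = 0.0875, limma) without replicate 1 of MEK5DD and 0.61 (adjusted p = 0.0790, limma) without replicate 2 of the parental controls. DNAH11, an axonemal dynein chain that lies 0.824 Mb from IL6 on chromosome 7, ranged from 0.534 to 3.49 RPKM and was called in neither line.

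Of 35 gene lists, chosen with earlier results of these data known, 13 held at least 1 member. Epithelial junction and keratin genes held 2 of 34 tested (5.88%), KRT7 and KRT18, and actin cytoskeleton genes 2 of 29 (6.90%), ACTA2 and ACTBL2. At the 0.298% share of all tested genes, under 1 member falls on a list of any of these sizes, so a list without members does not stand apart from the rest. Lists of genes tied to ERK5 itself held 0, namely the 13 tested genes of the ERK5 cascade with MEF2 and KLF targets and the 15 of AP-1 and immediate early response. Interferon-stimulated genes (44 tested), collagens (28), integrins (18) and laminins with basement membrane genes (13) held 0 too. Chromosomes 11 and 12 held 6 members each, 0.756% and 0.824% of the genes tested there, and chromosome 7 held 4, whereas chromosomes 3, 17 and X held 0.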

How the data were processed

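The 12 RNA libraries fell into 6 groups of 2 by cell line and treatment label. Per the labels, a stranded mRNA kit was used. The authors deposited RPKM values for 32152 genes, 17665 of them protein coding, scaled to gene length and library total. The submitters' processing notes name bcl2fastq, Trimmomatic 0.32, TopHat2 2.1.1, R 3.3.1 and DESeq2 1.12.4 and the build GRCh38. The counting tool, its strand setting and the annotation are not given in the sources used here.

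Library totals and whole reads were solved from the RPKM steps, and 100% of genes gave whole reads within 0.01 read. The solver was free to choose the length of each gene, so this share is no test by itself. With totals 1% off, 0 of 500 control genes gave whole reads. Their lengths were kept from the first solution, so this outcome was nearly fixed and does not test the recovery either. Recovery and the fit were tested on simulated data. The test was limma 3.58.1 (R 4.3.3) on log2(RPKM + 0.5) of 13737 genes, with 6 group means, a variance trend and 6 residual degrees of freedom, with Benjamini-Hochberg adjustment within each comparison. Calls needed an adjusted p under 0.05 and a change of at least 1.5-fold. Exon overlaps came from GENCODE 29 and promoters from RefSeq. Python 3.11.15 with pandas 2.3.3, numpy 2.4.6 and matplotlib 3.10.9 did the rest.

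The members and gene lists were chosen with earlier results of these data known, and role groups were formed from the members. Every member was given a value or a range. Members named by rule were the 14 with the largest smaller difference and a mean RPKM of at least 1, those called in both lines, and those on a gene list. The others were named for completeness after their values were seen.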

Additional observations from a re-analysis of the deposited data

Results flagged for a closer look

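For 34 members the change of libraries labelled MEK5DD against parental controls differed between the lines in a limma contrast of contrasts at an adjusted p under 0.05, as it did for 39.6% of all tested genes. The values below are the MEK5DD log2 fold change in MDA-MB-231 minus that in Hs-578T.

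In 28 of them the MEK5DD change was lower in MDA-MB-231 than in Hs-578T. Among genes of epithelia, adhesion and the cytoskeleton the difference was -4.88 for TRIM29, -3.14 for KRT7, -2.92 for PCDH1, -1.21 for PPFIBP2, -0.74 for ACTBL2 and -0.53 for MPZL3. Among secreted factors it was -4.79 for RARRES2, -2.12 for NELL2, -1.69 for IL6, -0.94 for DKK1, -0.91 for FST, -0.81 for TNFSF9 and -0.49 for BDNF. Among receptors and their modulators it was -2.49 for ADORA2A, -1.30 for GPRC5B and -0.99 for LYNX1. Among proteases and coagulation it was -2.48 for ADAM28, -1.70 for F3 and -1.20 for CPA4. Among regulators, enzymes and transporters it was -3.60 for GRAMD1B, -2.22 for SLC37A1, -1.89 for NEURL1, -1.88 for WT1, -1.65 for ALPP, -0.76 for ABCG2, -0.75 for DNAH11, -0.71 for XDH and -0.69 for CERS4.

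In 6 of them the MEK5DD change was higher in MDA-MB-231 than in Hs-578T. The difference was 2.1 for MMP16, 1.96 for TRIML2, 1.75 for FAM19A2, 1.73 for ACTA2, 1.35 for RGS5 and 1.23 for RGS4. MAP2K5 RNA differed far more from parental controls in MDA-MB-231 than in Hs-578T libraries labelled MEK5DD, with log2 fold changes of 3.77 and 0.50, and its part in these differences was not tested.

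For 7 of the 34 members the difference did not hold in every one of 20 alternatives. It lost its direction or its adjusted p under 0.05 in 14 for XDH, 13 for MPZL3, 5 for CERS4, 4 for BDNF and 1 each for ABCG2, SLC37A1 and TRIML2. For BDNF all 4 left out a single library (adjusted p = 0.0739 to 0.120, limma).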

How the results depend on the processing

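The choice of 41 members depended on the scale. With a pseudocount of 0.1, 77 genes passed the rule, with limma-voom on the recovered reads, an alternative chosen after seeing the data, 123 passed, and at 2-fold in both lines 11 passed. All 41 members were among the 77 and the 123. A pseudocount of 1 gave 31 genes, and median-ratio scaling and quantile normalization gave 46 each, with 40 and 39 of the members. Leaving out each library in turn gave 36 to 52 genes.

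The counts of members called in MEK5DD moved by over 1.5 times in few settings. In MDA-MB-231 the 3 higher calls became 6 with no fold threshold and ranged from 3 to 4 without each library in turn, and the 23 lower calls ranged from 22 to 23. In Hs-578T the 6 higher calls became 10 with a pseudocount of 0.1, 10 with no fold threshold and 3 in a fit of the line alone, and ranged from 5 to 7 without each library. The 4 lower calls in Hs-578T ranged from 4 to 7, with 7 without replicate 2 of the Hs-578T libraries labelled MEK5DD. The 34 differences between lines ranged from 30 to 34 without each library. For CERS4 the difference of the MEK5DD effect between lines, -0.69, was 0.21 (adjusted p = 0.740) with limma-voom on the recovered reads and -0.05 (adjusted p = 0.897) with a pseudocount of 0.1, and the cause was not tested. With limma-voom the difference was -0.04 for MPZL3 (adjusted p = 0.975), 1.22 for TRIML2 (adjusted p = 0.270) and -1.86 for SLC37A1 (adjusted p = 0.203).

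In a fit with a replicate block, 3 members were higher and 23 lower in MEK5DD of MDA-MB-231, 6 higher and 4 lower in Hs-578T, and 35 differed between the lines. Libraries of the same number share no stated origin beyond consecutive passages. Over 6 pairs of groups, the correlation of their deviations from the group means was highest, at 0.541, for parental controls and MEK5DD of Hs-578T. That pair is compared in the Hs-578T calls. The other pairs lay between 0.107 and 0.187. Of 756 alternatives to the 36 single MEK5DD calls, 751 kept the direction and the side of the adjusted p, and 5 kept the direction with an adjusted p over 0.05. Of 680 alternatives to the 34 differences between lines, 641 kept both, 38 kept the direction with an adjusted p over 0.05 and 1 reversed. The 38 were 14 for XDH, 11 of them without 1 library, 13 for MPZL3, 8 of them without 1 library, 4 each for BDNF and CERS4 and 1 each for ABCG2, SLC37A1 and TRIML2. Low depth limits members under 1 RPKM, whose log2 changes rest on few reads.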
